A study of Mus musculus with 42 samples.

Results

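The comparison asked which cerebellar transcripts still differed from controls after mice had returned from alternate-day fasting to free feeding. The mice were C57BL/6 males that had all fed freely until 3 months of age. EOD-R mice then went without food for 24 h on alternate days for 3 months, fed ad libitum for a further 2 months and were collected at 8 months of age. AL-R mice, the controls, fed ad libitum throughout and were collected at the same age. The labels write these names with a full stop in place of the hyphen. The groups were picked by their labels, and they hold 10 of the 42 samples of the series, 5 RNA-seq libraries each. A further 5 refed libraries, IF16-R, came from mice kept on a daily 16 h fast before the same refeeding, and served as another reference. The difference before refeeding came from EOD and AL libraries, 5 each, of mice collected at 6 months, when the regimens ended. No label gave the hour of collection relative to feeding.

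The cerebellum consists mostly of granule cells, the small excitatory neurons that feed the Purkinje cells, with inhibitory interneurons, Bergmann glia (the radial astrocytes around Purkinje cells) and myelinating oligodendrocytes. Fasting moves the body from glucose towards fatty acids and ketone bodies, and astrocytes, which contact blood vessels and are joined to each other by gap junctions, handle much of the brain's fuel, water and ion traffic. Connexins form those junctions, and endothelins are peptides that act on vessels and on glia through their receptors.

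Total counts ran from 29255004 to 31869712 in EOD-R and from 30577782 to 33736297 in AL-R. Every one of these libraries had at most 8 counts of Xist and at least 1747 of the Y-linked Ddx3y, as in male tissue. Granule cell markers summed to between 8413 and 9161 CPM (counts scaled to a common library size) over the 10 libraries, while only 3 of 11 brainstem markers passed the filter on low counts. Choroid plexus, the tissue of the ventricles that makes cerebrospinal fluid, was unevenly present: AL-R replicate 1, EOD-R replicate 2 and EOD-R replicate 3 stood apart, with 2762, 1369 and 3048 summed CPM of its 11 markers against 166 to 414 in the other 7 libraries. Results are therefore also given without these 3 libraries.

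Few transcripts separated EOD-R from AL-R. Of 16444 genes tested with the quasi-likelihood test of edgeR, 7 (0.0426%) were called, that is, had an adjusted p under 0.05, 4 higher (0.0243%) and 3 lower (0.0182%) in EOD-R. Gja1 and Ednrb, both abundant in astrocytes, rose to 1.21 and 1.199 of the AL-R level, and the vesicle protein gene Synpr and the dynein gene Dnah11 to 1.21 and 1.246. The phosphatase gene Ptpn5, the Ras activator gene Kndc1 and the scaffold gene Frmpd3 fell to 0.780, 0.857 and 0.748 of it. In these bulk samples, more RNA of a gene per cell and more cells that hold it cannot be told apart. All 7 had an edgeR adjusted p of 0.0427. Unadjusted p was under 0.05 for 1397 genes (8.5%), 741 higher (4.51%) and 656 lower (3.99%), and the 5 EOD-R libraries lay wholly above the 5 AL-R libraries for 156 genes (0.949%) and wholly below for 151 (0.918%).

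These 7 calls depended on the libraries and on the fit, while the fold changes of the 7 genes kept their sign in all 23 alternatives. Leaving out AL-R replicate 1, 2, 3 or 5 or EOD-R replicate 2, 3, 4 or 5 left 0 calls in edgeR, and 1110 to 1447 genes then had unadjusted p-values under 0.05. Without AL-R replicate 4 there were 2, and without EOD-R replicate 1 there were 16. Without the 3 libraries rich in choroid plexus edgeR called 0 genes, with 753 at an unadjusted p under 0.05. A fit of all 30 libraries, whose spread is wider (common biological coefficient of variation 11.7%, against 8.05% in the fit of the 15 refed libraries), also called 0 genes and had 600 (3.56%) at an unadjusted p under 0.05. The length gradient is a library's slope of log2 CPM on log2 gene length, after each gene's mean over the libraries is subtracted. With a covariate for it edgeR again called 0, with 1520 at that unadjusted p. The gradient ran from -0.026 to -0.0036 in AL-R and from -0.026 to 0.0093 in EOD-R. DESeq2 called 87 genes and limma voom 12, each including the same 7.

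The size of the differences was bounded for most genes. The median standard error (SE) of a log2 fold change was 0.0703. The 95% interval lay within a 1.5-fold difference for 13912 genes (84.6%). It lay wholly beyond a 1.5-fold difference for 3 genes, the globin genes Hba-a1, Hba-a2 and Hbb-bs, all lower in EOD-R. These are red blood cell transcripts, none of the 3 was called, and their libraries overlapped between the groups.

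**Figure D1:**
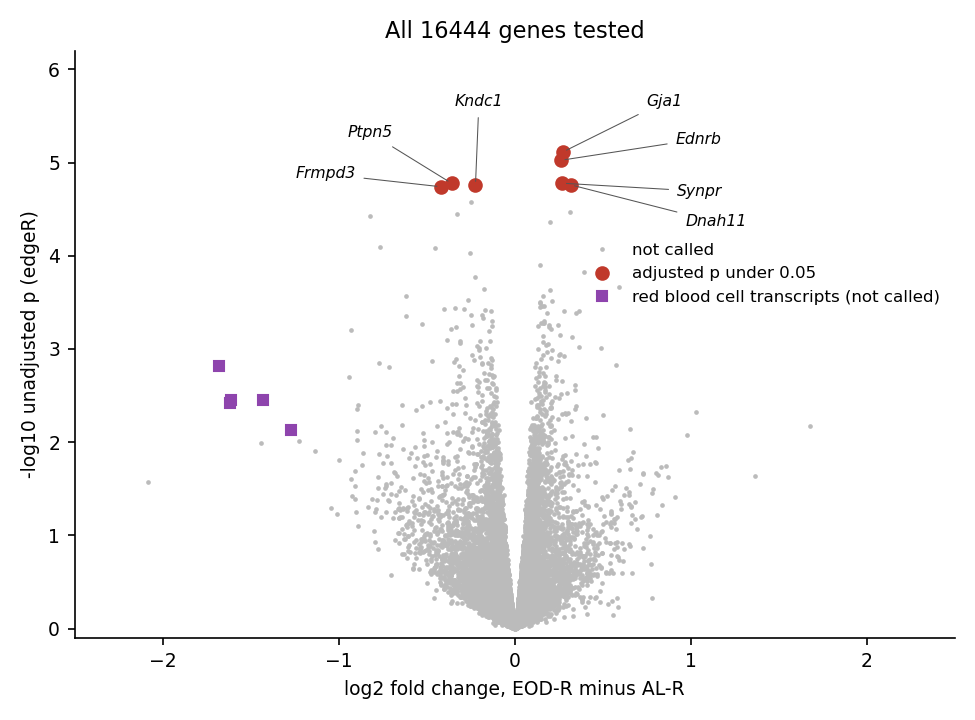
Each point is 1 of the 16444 genes tested, with its log2 fold change (EOD-R minus AL-R) on the horizontal axis and -log10 of the unadjusted edgeR p on the vertical axis. The 7 called genes (red) lie at small fold changes, between -0.42 and 0.32, and the 5 red blood cell transcripts (purple) lie between -1.68 and -1.27, none called.

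The promoters of Gja1 and Kndc1 are shown because these genes are the most abundant of the called genes, per length, in either direction, at means of 84.7 and 35.7 FPKM, a unit scaled to gene length, in EOD-R. Each run is the 250 bases before the RefSeq start, from RefSeq with assembly GRCm38.p6, on the plus strand, chr10:56377050-56377299 for Gja1 and chr7:139894446-139894695 for Kndc1. Capitals mark the AP-1 site (TGACTCA, which reads TGAGTCA on the other strand) in Gja1 and the GC boxes (GGGCGG, or CCGCCC on the other strand) in Kndc1.
Gja1: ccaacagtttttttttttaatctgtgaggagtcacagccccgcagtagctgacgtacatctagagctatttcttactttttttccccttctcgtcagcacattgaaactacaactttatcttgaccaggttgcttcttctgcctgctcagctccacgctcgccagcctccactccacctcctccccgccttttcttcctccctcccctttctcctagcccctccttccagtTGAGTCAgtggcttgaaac
Kndc1: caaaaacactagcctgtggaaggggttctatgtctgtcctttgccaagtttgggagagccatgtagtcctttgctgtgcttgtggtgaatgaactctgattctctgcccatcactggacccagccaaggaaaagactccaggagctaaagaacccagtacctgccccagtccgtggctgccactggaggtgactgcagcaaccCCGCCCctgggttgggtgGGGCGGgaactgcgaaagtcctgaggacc
All 7 called genes matched the promoter table, which holds 32851 promoters. Searched on both strands of windows of this length, the AP-1 letters occur in 4.46% of them, the GC box in 32.7% and the CCAAT box in 33.8%. The E-box CACGTG occurs in 6.02%, the cAMP response element TGACGTCA in 1.55% and the full palindromic NFI site in 0.0365%. Among the called genes AP-1 letters were found for Gja1 alone, CCAAT letters for Ednrb and Synpr, and GC boxes for Synpr, Ptpn5 and Kndc1. None of the marked stretches overlaps another motif searched, and they describe these windows only.

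Gja1 (ENSMUSG00000050953, chromosome 10, 56377300-56390419) encodes the main gap junction connexin of astrocytes. Its AL-R libraries held 201, 222, 212, 236 and 216 CPM, in the order of replicates, and its EOD-R libraries 266, 251, 258, 275 and 261. All EOD-R libraries were above all AL-R libraries. The means were 263 ± 9.03 and 217 ± 13.0 CPM (SD, n = 5 each), a log2 fold change of 0.27 (SE 0.0448, edgeR adjusted p = 0.0427). IF16-R mice stood at 269.8 ± 14.3 CPM, and EOD-R minus IF16-R was -0.04 on the log2 scale (edgeR adjusted p = 0.839).

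Ednrb (ENSMUSG00000022122, chromosome 14, 103814625-103844173) encodes the endothelin B receptor, which in brain is carried largely by astrocytes and Bergmann glia. AL-R libraries held 100.2, 108, 97.2, 105 and 108 CPM, and EOD-R libraries 126, 127, 120.4, 132 and 116. The groups did not overlap, and the lowest EOD-R library was replicate 5. Ednrb rose from 104 ± 4.78 to 124 ± 6.03 CPM (SD, n = 5 each; log2 fold change 0.26, SE 0.0437, edgeR adjusted p = 0.0427). Of the 16 connexin and endothelin genes tested, Gja1 and Ednrb were the ones called. That list was made around these called genes, so their calls in it were fixed in advance. The same holds for the called genes in the vesicle, dynein, Ras and ERK, and FERM and PDZ lists below. Their counts stand beside 4.51% of all genes higher and 3.99% lower at an unadjusted p under 0.05 in edgeR. The vascular connexin gene Gja4 was at -0.33 on the log2 scale with an edgeR adjusted p of 0.334.

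Synpr (ENSMUSG00000056296, chromosome 14, 13284780-13615459) encodes synaptoporin, a membrane protein of synaptic vesicles. Its values were 49.3, 57.5, 57.8, 60.0 and 56.0 CPM in AL-R and 67.2, 63.5, 68.2, 70.7 and 69.0 in EOD-R. AL-R replicate 1 was the lowest library and the groups did not overlap. The log2 fold change was 0.27 (SE 0.0472, edgeR adjusted p = 0.0427). Among 31 vesicle and release gene entries tested, 2 were higher and 4 lower at an unadjusted p under 0.05, with a median log2 fold change of -0.03 against 0.00067 for all genes. The 4 lower genes were Sv2c, Unc13a, Syn1 and Rab3c, none called.

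Dnah11 (ENSMUSG00000018581, chromosome 12, 117877982-118199043) encodes a heavy chain of the dynein motor of motile cilia. It held 21.0, 21.7, 22.1, 20.8 and 19.3 CPM in AL-R and 26.4, 27.2, 23.9, 28.2 and 24.99 in EOD-R. Every EOD-R library exceeded every AL-R library. The log2 fold change was 0.32 (SE 0.0555, edgeR adjusted p = 0.0427). Of 19 axonemal dynein genes tested, 2 were higher (Dnah11 and Dnah7c) and 1 lower (Dnali1) at an unadjusted p under 0.05, and the median was -0.02.

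Ptpn5 (ENSMUSG00000030854, chromosome 7, 47077798-47133684) encodes STEP, a neuronal tyrosine phosphatase that acts on ERK and glutamate receptors. AL-R libraries held 31.0, 25.1, 24.3, 25.9 and 25.7 CPM and EOD-R libraries 21.97, 19.3, 20.2, 21.0 and 20.4. AL-R replicate 1, one of the libraries rich in choroid plexus, was far above the others, and the groups did not overlap. Ptpn5 fell from 26.4 ± 2.67 to 20.6 ± 0.984 CPM (SD, n = 5 each; log2 fold change -0.36, SE 0.0625, edgeR adjusted p = 0.0427). Without the 3 choroid-rich libraries the log2 fold change was -0.26.

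Kndc1 (ENSMUSG00000066129, chromosome 7, 139894696-139941537) encodes a guanine nucleotide exchange factor for Ras found in granule cell dendrites. It held 303, 297, 305, 296 and 317 CPM in AL-R and 264, 264, 258, 266 and 248 in EOD-R. Every EOD-R library lay below every AL-R library. The log2 fold change was -0.22 (SE 0.0391, edgeR adjusted p = 0.0427). Of 28 Ras and ERK regulators tested, 4 were lower at an unadjusted p under 0.05 (among them Kndc1, Ptpn5 and Rasgrp2) and 0 higher, beside 3.99% and 4.51% of all genes, with a median of -0.0016. The list was made around Kndc1 and Ptpn5, so 2 of those 4 are the called genes themselves.

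Frmpd3 (ENSMUSG00000042425, chromosome X, 140367494-140394540) encodes a protein with FERM and PDZ domains, which link membrane proteins to the cytoskeleton. AL-R libraries held 16.7, 14.6, 14.9, 15.9 and 14.015 CPM, and EOD-R libraries 10.8, 11.8, 9.73, 13.1 and 11.5. The groups did not overlap. The log2 fold change was -0.42 (SE 0.0735, edgeR adjusted p = 0.0427), the largest in size among the 7 called genes. The 16 FERM and PDZ scaffold genes tested had 1 higher (Dlg1, 0.09) and 3 lower (Frmpd3, Shank1 at -0.16 and Shank3 at -0.11) at an unadjusted p under 0.05. Frmpd3, around which the list was made, was the one called.

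**Figure D2:**
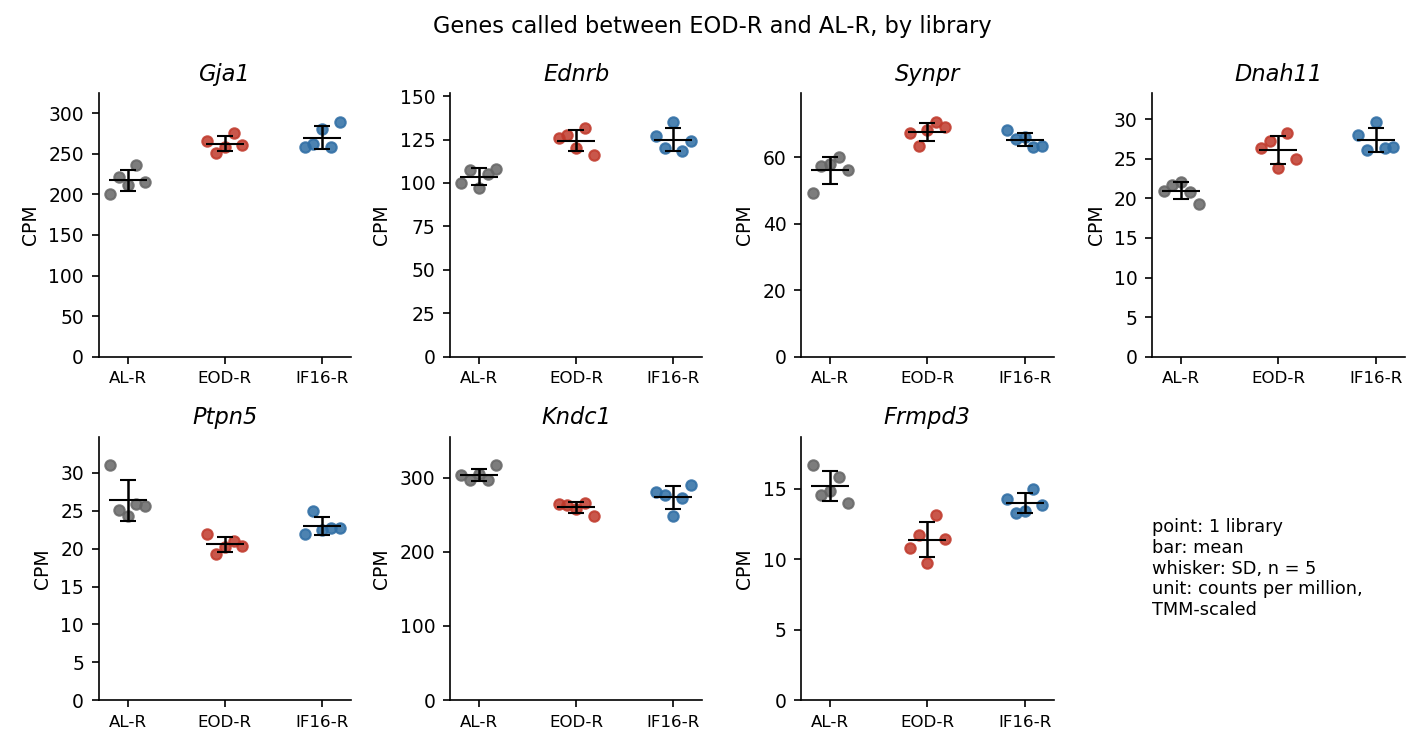
CPM (vertical axis, from 0) of the 7 called genes in each library of AL-R (grey), EOD-R (red) and IF16-R (blue), with the mean (bar) and SD (whisker, n = 5). For each gene the EOD-R points lie wholly above or wholly below the AL-R points.

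EOD-R and IF16-R were both compared with the same AL-R libraries, so the values stand side by side and share their controls. IF16-R against AL-R called 28 genes (0.17%), with 9.58% of genes at an unadjusted p under 0.05. IF16-R minus AL-R was 0.31 on the log2 scale for Gja1, 0.27 for Ednrb and 0.38 for Dnah11 (edgeR adjusted p = 0.0116, 0.0277 and 0.0116). It was 0.22 for Synpr, -0.20 for Ptpn5, -0.15 for Kndc1 and -0.12 for Frmpd3, none called. Between EOD-R and IF16-R directly, 3 genes (0.0182%) were called and 9.75% had an unadjusted p under 0.05, and none of the 3 was among these 7 (edgeR adjusted p from 0.228 to 0.977). The 3 were Gng13, Rpl38 and Rpl41, each higher in EOD-R than in IF16-R. EOD-R minus AL-R was 0.12, 0.10 and 0.03 for them, none called. IF16-R minus AL-R was -0.49, -0.23 and -0.22, each called lower (edgeR adjusted p = 0.0312, 0.0435 and 0.0312).

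At the end of the regimen none of these 7 genes was called between EOD and AL (edgeR adjusted p from 0.120 to 0.658), where 188 genes (1.11%) were. In the fit of all 30 libraries, EOD minus AL was 0.07 on the log2 scale for Gja1 (95% interval -0.07 to 0.21), -0.05 for Ednrb (-0.16 to 0.06) and 0.06 for Synpr (-0.11 to 0.23). Ptpn5 was at -0.26 (-0.47 to -0.06) and Kndc1 at 0.13 (0.0050 to 0.26). Dnah11 stood at 0.16 (-0.12 to 0.43) and Frmpd3 at -0.09 (-0.31 to 0.14). The change of the difference between the end of the regimen and refeeding (the interaction) was 0.31 for Ednrb and -0.36 for Kndc1, with edgeR adjusted p = 0.240 and 0.261, so neither passed the test. Over all 16877 genes the interaction called 2 (0.0119%) and 10.3% had an unadjusted p under 0.05. The 2 were the glial enzyme gene Etnppl and the histone gene Hist1h1c. Etnppl, which encodes an enzyme that breaks down phosphoethanolamine, went from 0.60 at the end of the regimen to 0.17 after refeeding, where it was not called.

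**Figure D3:**
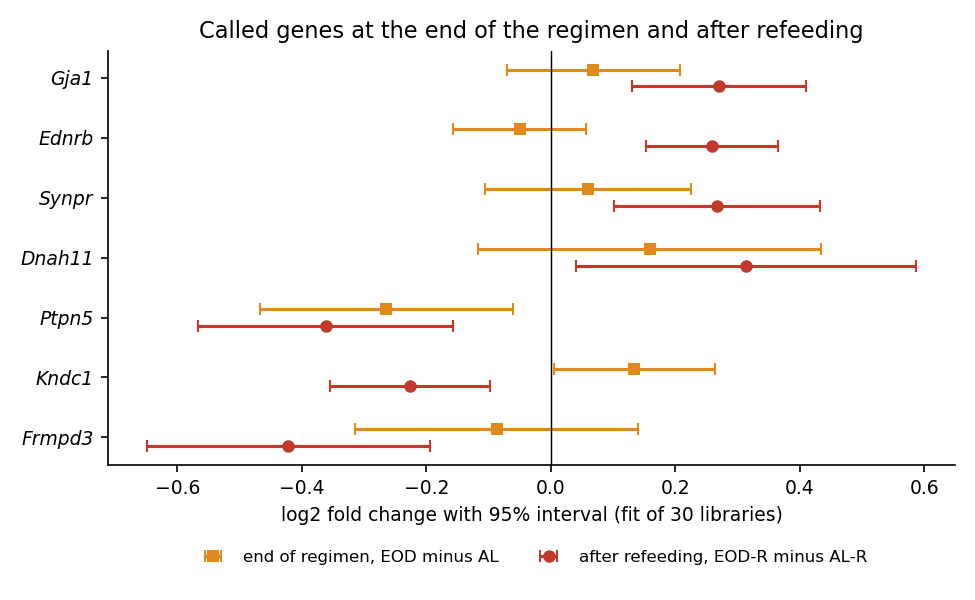
Log2 fold change with its 95% interval (horizontal axis, fit of 30 libraries) of the 7 called genes at the end of the regimen (orange, EOD minus AL) and after refeeding (red, EOD-R minus AL-R). Kndc1 lies above 0 at the end of the regimen, at 0.13, and below 0 after refeeding, at -0.23.

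Further astrocyte genes besides Gja1 and Ednrb were higher in EOD-R without being called. Of 30 astrocyte and Bergmann glia genes tested, 10 (33.3%) were higher and 0 lower at an unadjusted p under 0.05, beside 4.51% and 3.99% of all genes. The 10 include the 2 called, Gja1 and Ednrb. Summed over the 30 genes, AL-R libraries held 13635 to 15070 CPM and EOD-R libraries 14541 to 15442, with overlap. The list's median log2 fold change was 0.05. Aqp4, the water channel of astrocyte end feet, held 255, 262, 242, 249 and 267 CPM in AL-R and 289.8, 297, 274, 317 and 284 in EOD-R, with no overlap (log2 fold change 0.20, edgeR adjusted p = 0.171). For Aqp4, IF16-R minus AL-R was 0.23, which was called (edgeR adjusted p = 0.0374). S100b, a calcium-binding protein, and Slco1c1, a thyroid hormone transporter, were at 0.17 and 0.25, neither called. The glutamate transporter gene Slc1a3 and the list member Mlc1 were at 0.08 and 0.10, also not called. The other glial glutamate transporter gene, Slc1a2, and the glutamine synthetase gene Glul were at 0.02 and -0.04. The count of higher members ran from 7 to 14 over the alternatives, with 0 lower in each, and was 8 without the choroid-rich libraries and 7 in the fit of all 30 libraries.

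Oligodendrocyte genes, which build myelin, included 6 of 12 tested (50%) at an unadjusted p under 0.05, all higher in EOD-R. Of all genes 4.51% were higher and 3.99% lower at that p. The list's median was 0.15, and none of its members was called. Opalin, a membrane protein of myelin, held 7.45, 9.40, 8.06, 7.94 and 7.56 CPM in AL-R and 11, 11.5, 10.1, 8.57 and 9.28 in EOD-R, and the groups overlapped. Mbp, a main protein of myelin, was at 0.16. Without the choroid-rich libraries 3 members remained under that p, and without AL-R replicate 1 or EOD-R replicate 5, or in the fit of all 30 libraries, there were 2. In a fit of the EOD-R and AL-R libraries alone there were 10. Over all alternatives the count ran from 2 to 11 higher, with 0 lower. Summed over the 12 genes, AL-R libraries held 5189 to 5766 CPM and EOD-R libraries 5790 to 6900, without overlap, and the highest was EOD-R replicate 5. IF16-R libraries held 5372 to 7261, a range that takes in values of both groups. Of the single genes 1 lay wholly higher in EOD-R, beside 0.949% of all genes. Of 7 markers of oligodendrocyte precursors 2 were lower (Cspg4 and Neu4, both -0.24) and 0 higher at that p.

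No Purkinje cell, granule cell or interneuron marker was called between EOD-R and AL-R. Their counts at an unadjusted p under 0.05 stand beside 4.51% of all genes higher and 3.99% lower. Interneuron genes were at 8.33% higher and 16.7% lower. Purkinje cell genes had 1 of 12 higher (Calb1, 0.07), granule cell genes 1 of 13 lower (Slc17a7, the vesicular glutamate transporter, -0.08), and interneuron genes 1 higher (Lypd6, 0.13) and 2 lower (the GABA synthesis gene Gad2, -0.09, and Grm2, -0.10) of 12. Their medians were 0.01, -0.01 and 0.01.

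The mRNAs of cytosolic ribosomal proteins were mostly slightly higher in EOD-R, none of them called. Of 91 tested, 28 (30.8%) were higher and 0 lower at an unadjusted p under 0.05, beside 4.51% and 3.99% of all genes. The median was 0.09 and 0 were called. Rpl3, of the large subunit, had means of 355 ± 11.04 CPM in EOD-R against 322 ± 11.2 in AL-R (SD over 5 libraries; log2 fold change 0.14, edgeR adjusted p = 0.171). The count of higher members was 6 without the choroid-rich libraries, 17 without EOD-R replicate 5, 18 without EOD-R replicate 2 and 55 without EOD-R replicate 1, and 1 in the fit of all 30 libraries. Many of these genes have near-identical pseudogene copies, and single values are uncertain.

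No gene of the pathways of fuel use was called after refeeding. This held for the fatty acid oxidation (24 tested), ketone body (10), glycolysis (20), pyruvate entry and TCA cycle (23) and nuclear respiratory chain (38) genes, and their medians lay between -0.02 and 0.05. Slc16a1, a transporter of ketone bodies and lactate, held 45.7, 47.0, 39.955, 45.0 and 40.2 CPM in AL-R and 53.6, 51.7, 51.7, 49.4 and 44.1 in EOD-R, with overlap (log2 fold change 0.20, edgeR adjusted p = 0.377). Pdk4, which limits pyruvate entry, was at 0.36 (edgeR adjusted p = 0.458), Bdh2 at 0.45 and the respiratory chain genes Ndufa4 and Cyc1 at 0.12 and -0.09. Hadh and Acadl, enzymes of fatty acid oxidation, were both at 0.13. Of the 32 autophagy genes tested 5 were higher and 0 lower at an unadjusted p under 0.05, and 1 was in the fit of all 30 libraries. Of 17 fatty acid synthesis genes 3 were higher under that p (Scd2, Fads2 and Me1) and 0 lower. These shares of higher genes, 15.6% for autophagy and 17.6% for fatty acid synthesis, stand beside 4.51% of all genes higher and 3.99% lower.

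Of 13 mRNAs of the mitochondrial genome, mt-Atp6, mt-Co2, mt-Co3 and mt-Nd3 were lower in EOD-R at an unadjusted p under 0.05 without overlap, at -0.34, -0.33, -0.31 and -0.43 on the log2 scale, and mt-Co1 was higher, at 0.11. Of all genes 3.99% were lower and 4.51% higher at that p, and 0.918% lay wholly below AL-R. None of the 13 was called in the fit of the 15 refed libraries. In other fits of EOD-R against AL-R, 3 of the 13 were called with DESeq2 and 3 with a replicate block and length gradient together. With the EOD-R and AL-R libraries alone 1 was called, and 0 in the fit of all 30 libraries. IF16-R minus AL-R was -0.46 for mt-Atp6, -0.44 for mt-Co3 and -0.74 for mt-Nd3, each called (edgeR adjusted p = 0.0312). mt-Atp6, a subunit of ATP synthase, held 68.1, 66.5, 61.9, 70.6 and 72.7 CPM in AL-R and 50.7, 56.3, 56.2, 55.7 and 49.7 in EOD-R. These 4 mRNAs have near-identical nuclear copies, with which reads may have been exchanged, so their values are uncertain.

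No clock or activity gene was called in the fit of the 15 refed libraries. Dbp, an output of the circadian clock, was the only one of 24 clock genes under an unadjusted p of 0.05, at -0.24. Its AL-R libraries held 49.2, 70.9, 67.9, 70.7 and 71.5 CPM and its EOD-R libraries 60.2, 53.3, 57.6, 50.3 and 58.2, so that AL-R replicate 1 was below every EOD-R library. With the red blood cell covariate 10 of the 24 clock genes were higher and 0 lower at that p. Of 19 immediate early genes, which respond to neuronal activity and handling, 3 (15.8%) were higher (Btg2, Egr3 and Jun) and 0 lower, with a median of 0.32. In the fit of the 15 refed libraries 4.51% of all genes were higher and 3.99% lower at that p. Over the alternatives the count ran from 0 to 13 higher and from 0 to 1 lower. The median was -0.04 without the choroid-rich libraries.

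**Figure D4:**
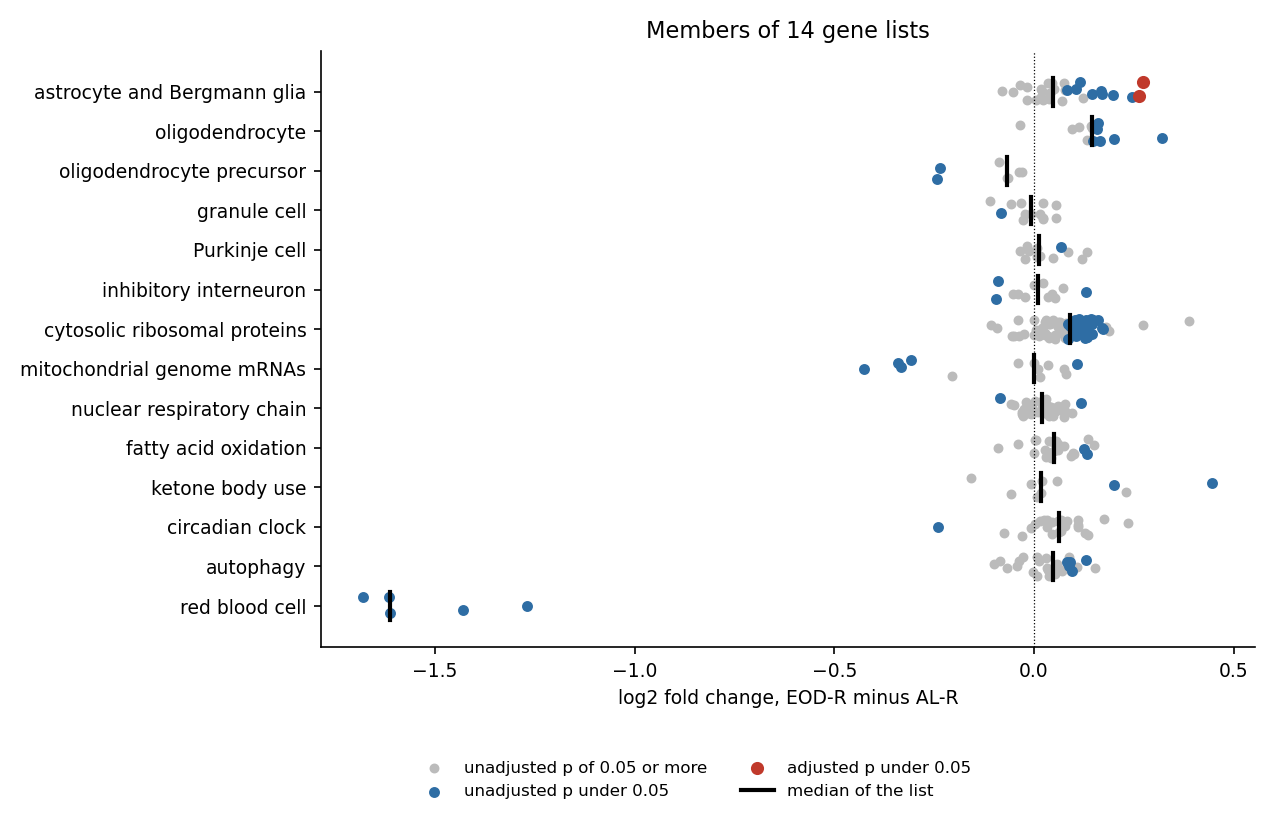
Each point is 1 tested gene of 14 lists (rows), placed by its log2 fold change, EOD-R minus AL-R (horizontal axis), and the black bar is the list's median. The 5 red blood cell transcripts lie between -1.68 and -1.27, while the medians of the other lists drawn lie between -0.07 and 0.15.

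Red blood cell transcripts had large fold changes. All 5 tested (the globins Hba-a1, Hba-a2, Hbb-bs and Hbb-bt, and the heme enzyme Alas2) were lower in EOD-R at an unadjusted p under 0.05. At that p 3.99% of all genes were lower. The median of the 5 was -1.61, and none was called. Hba-a1 held 3.85, 15.007, 38.9, 19.7 and 47.9 CPM in AL-R and 6.35, 5.50, 8.77, 10.001 and 8.49 in EOD-R. AL-R replicate 1 lay below the EOD-R range, and the other 4 AL-R libraries above it. Summed over the 5 transcripts, AL-R ran from 8.68 to 114 CPM and EOD-R from 14.9 to 25.7. With each library's red blood cell level as a covariate, 5 genes were called, 2 of them among the 7. The part of blood content in the other results was not tested.

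**Figure D5:**
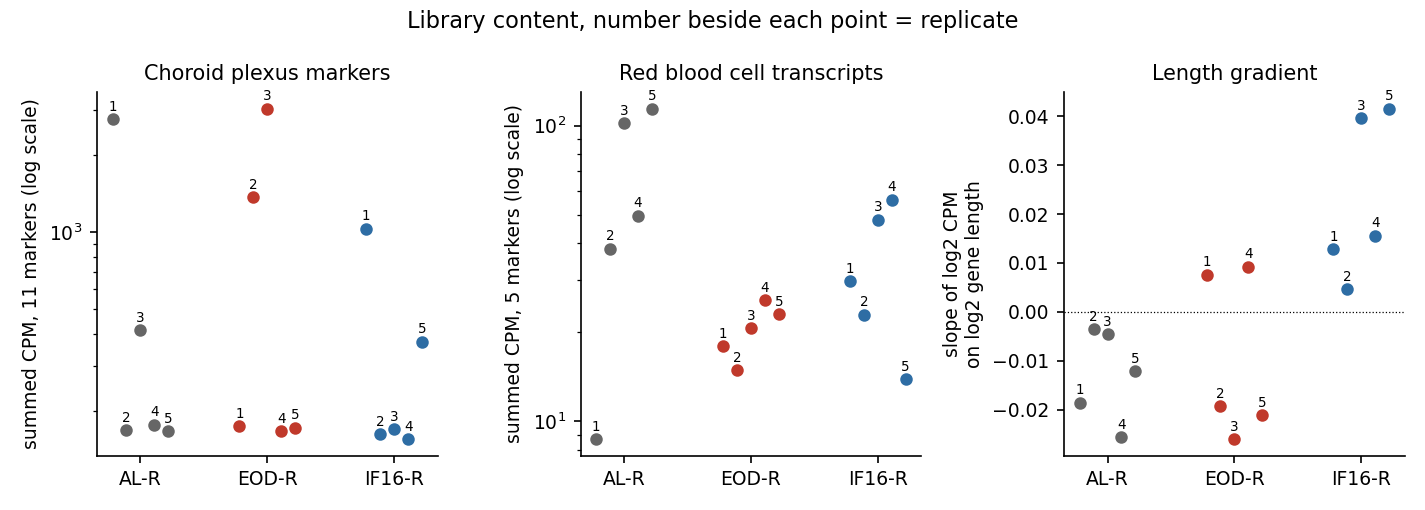
Summed CPM of 11 choroid plexus markers and of 5 red blood cell transcripts (log axes) and the length gradient in each refed library, with replicate numbers. The gradient is the slope of log2 CPM, less each gene's mean over the libraries, on log2 gene length. AL-R replicate 1 and EOD-R replicates 2 and 3 stand above the others in choroid plexus markers, and 4 of the 5 AL-R libraries stand above all EOD-R libraries in red blood cell transcripts.

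Several genes outside the 7 came close. Whrn, a PDZ scaffold of hair cell and neuronal membranes, was lower in every EOD-R library, 214 to 254 CPM against 255 to 284 (log2 fold change -0.25, edgeR adjusted p = 0.0543). Fxyd6, a regulator of the sodium pump, was at 0.31, and Eps15, an endocytosis adaptor, at 0.20, with edgeR adjusted p = 0.0554 and 0.0595. Col5a3, a fibrillar collagen chain, was at -0.33 (edgeR adjusted p = 0.0554). None of these 4 passed the threshold between EOD-R and AL-R. For Eps15, IF16-R minus AL-R was 0.19, which was called (edgeR adjusted p = 0.0462). It was -0.13 for Whrn, 0.25 for Fxyd6 and -0.26 for Col5a3, none called.

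Other genes without overlap and with the smallest p in either direction were also small in change, apart from the low transcript Tmem82. Higher in EOD-R were Serpinb1a, a protease inhibitor gene, at 0.39 (13.8 to 14.9 CPM against 9.36 to 11.8 in AL-R), the small GTPase gene Rap1a at 0.16, the ubiquitin ligase gene Rnf13 at 0.14, and the translation initiation genes Eif3e and Cdc123 both at 0.15. Lower were Tmem82 at -0.77 (0.717 to 1.19 CPM against 1.44 to 1.88), the phosphatase gene Dusp15 at -0.29, the cytokine receptor gene Csf2ra at -0.25, the cyclic nucleotide phosphodiesterase gene Pde2a at -0.22 and the aminopeptidase gene Rnpep at -0.17. Their edgeR adjusted p ran from 0.0981 to 0.171. Dusp15 and Csf2ra were also lower at the end of the regimen, where both were called. In the fit of 30 libraries EOD minus AL was -0.40 and -0.53 (edgeR adjusted p = 0.00882 and 0.0169). Neither was called after refeeding in that fit. Among named genes of at least 1 CPM, the largest upward fold changes at an unadjusted p under 0.05 were those of low transcripts: Plaur, a urokinase receptor, at 0.78, the stress factor gene Atf3 at 0.71, Prl2c3 at 0.58, and Dnah7c and Rnf125 both at 0.50. The largest downward one was that of Capn11, a calpain gene, at -2.08, ahead of the globins. Capn11 ran from 0.27 to 8.77 CPM in AL-R and from 0.521 to 0.978 in EOD-R.

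Further lists were read for other tissue and other responses. Their counts stand beside 4.51% of all genes higher and 3.99% lower at an unadjusted p under 0.05, and counts of 1 or 2 in lists of about 20 genes are near these shares. Endothelial genes were 3 of 10 higher at an unadjusted p under 0.05 (the tight junction gene Cldn5 at 0.28, Itm2a at 0.20 and the efflux pump gene Abcb1a at 0.11), microglial genes 1 of 11 higher (P2ry12 at 0.23) and mural cell genes 1 of 7 lower (Kcnj8 at -0.27). Ependymal, unipolar brush cell, meningeal, choroid plexus, brainstem and forebrain genes had 0 under that p. Amino acid response genes had 3 of 19 lower (Atf5, Chac1 and Slc7a5), neurotrophin and growth factor genes 2 of 13 lower (Vegfa at -0.17 and Ntrk3 at -0.11), and insulin signalling genes 2 of 24 lower (Akt1 at -0.08 and Igfbp4 at -0.15). PPAR target and lipid droplet genes had 3 of 24 higher (Pdk4, Fabp5 and Plin2) and 1 lower (Ppargc1b at -0.28), and genes that respond to glucocorticoids and FOXO factors 3 of 25 higher (Pdk4, Trp53inp1 and Nr3c2). Of 22 genes of histone H3 lysine 9 methylation 1 was higher (Cbx3 at 0.08), and of 23 cholesterol genes 1 (Apoe at 0.11). No gene of these lists was called.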

How the data were processed

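Cerebellar RNA was sequenced in 30 libraries, and the 12 chromatin libraries were not analysed here. The values the authors deposited are unnormalized counts of reads for 35275 genes (build mm10, per the submitters' processing notes), in 2 tables of 15 libraries. The submitters' processing notes name STAR 2.5, HTSeq 0.6.1 and DESeq2 without their roles. Strand handling is not given in the sources used here, so overlapping, antisense or near-identical genes may exchange reads. The FPKM values the authors deposited equal the counts scaled by the table's gene length and the library's sum (largest relative difference 5e-12), and served only to compare levels between genes. Per the labels, every library has its own replicate number, and whether mice were shared is not stated, so p-values measure the spread between libraries.

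Counts were tested with edgeR 4.0.16 (R 4.3.3): TMM normalization, filterByExpr by group and the quasi-likelihood test on the 15 refed libraries, with 16444 genes left. The interaction used all 30 libraries and 16877 genes. P-values were adjusted by Benjamini-Hochberg over all genes tested, and genes with adjusted p under 0.05 were called. CPM are TMM-scaled. No 2 libraries agreed within sampling noise, at this depth (29255004 to 33736297 counts in EOD-R and AL-R) counting error is small, and precision is set by the spread between libraries. The scripts were tested on simulated data. Alternatives were DESeq2 1.42.0, limma 3.58.1 voom, RLE scaling, other filters, covariates for length gradient and choroid plexus, a replicate block, the 10 libraries of EOD-R and AL-R alone and leaving out each library. Added after seeing the data were fits without choroid-rich libraries (mean log2 CPM of the 11 markers above 4), with a red blood cell covariate and with all 30 libraries.

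Genes named are all called genes, the 8 with the smallest p in each direction among uncalled genes of at least 1 CPM with no overlap, the 5 highest and 5 lowest fold changes among genes of at least 1 CPM at an unadjusted p under 0.05, the gene with the smallest p of each of 39 lists, sex check genes, Ttr and the families of called genes, leaving out predicted (Gm, Rik) genes and pseudogenes, from which the text names those it describes. Other list members named were chosen after their values were seen, and some list members are not reported here by name. The comparison and the lists were chosen with earlier results of these data known.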

Additional observations from a re-analysis of the deposited data

Results flagged for a closer look

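Single libraries stood apart from the other 4 of their group for 10 of 148 groups checked (Dixon's test at its 95% critical value), where chance flags about 1 in 20. AL-R replicate 1 was the library in 6 of the 10. It held 31.0 CPM of Ptpn5 against 24.3 to 25.9 in the others, 0.800 of Plaur against 0.990 to 1.03, and 13.8 of Otx2 against 11.3 to 11.9. It also held 49.2 CPM of Dbp against 67.9 to 71.5, 47.0 of the autophagy gene Atg12 against 54.2 to 54.5, and 1826 of Ttr against 15.035 to 199. AL-R replicate 4 held 26.4 CPM of the coactivator gene Ppargc1b against 35.3 to 38.5, and 341 of Rpl3 against 315 to 320.4. EOD-R replicate 5 held 45.9 CPM of the endothelial gene Itm2a against 49.8 to 51.4, and EOD-R replicate 4 held 65.6 of Ddx3y against 59.3 to 60.6.

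The difference between alternate-day fasting and control changed from the end of the regimen to refeeding for Etnppl by -0.44 and for Hist1h1c by 0.74 on the log2 scale (edgeR adjusted p = 0.0127 and 0.0494). Hist1h1c, a linker histone gene, was at -0.72 in EOD against AL and at 0.03 in EOD-R against AL-R, in the fit of 30 libraries. Dropping any single library in turn gave 20 fits, of which 7 called 0 genes for this change (1072 to 3357 genes at an unadjusted p below 0.05 over the 20).

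EOD-R was higher than IF16-R for Gng13, a G protein subunit gene, by 0.61. The means were 12.35 ± 1.09 CPM in EOD-R, 8.08 ± 1.10 in IF16-R and 11.4 ± 0.730 in AL-R (SD, n = 5 each). EOD-R was also higher than IF16-R for the ribosomal protein genes Rpl38 by 0.33 and Rpl41 by 0.25 (edgeR adjusted p = 0.0111 for Gng13, 0.00888 for Rpl38 and 0.0406 for Rpl41). The length gradient was 0.0046 to 0.0416 in IF16-R libraries and -0.026 to 0.0093 in EOD-R libraries, and with that gradient as a covariate edgeR called 0 genes here (772 at an unadjusted p under 0.05). It also called 0 when either IF16-R replicate 3 or replicate 2 of EOD-R was dropped (1246 and 1210 genes then had an unadjusted p below 0.05), and 71 when replicate 1 of EOD-R was. Ppargc1b lay on opposite sides of the AL-R mean in all EOD-R and all IF16-R libraries, with EOD-R minus IF16-R at -0.44 (edgeR adjusted p = 0.115). That opposite placement itself was not tested, and it rests on AL-R replicate 4, which lowers the AL-R mean: IF16-R replicate 2, at 34.995 CPM, lies below each of the other 4 AL-R libraries.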

How the results depend on the processing

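The count of genes called between EOD-R and AL-R was 7, and 3 between EOD-R and IF16-R, with 2 for the interaction. In that order it was 87, 123 and 14 with DESeq2, 11, 6 and 4 with no filter, 45, 40 and 10 with the replicate block, and 170, 0 and 38 with the replicate block and length gradient together (the 0 beside 1398 at an unadjusted p under 0.05 in edgeR). It was 0, 0 and 6 with the length gradient alone as a covariate in edgeR (1520 and 772 genes at an unadjusted p under 0.05 in the first 2), and 0, 0 and 1 without the choroid-rich libraries (753 and 805 at an unadjusted p under 0.05). The EOD-R against AL-R count was 16 with the choroid plexus covariate, 4 in a fit of these groups alone, 12 with limma voom and 0 in the fit of all 30 libraries (600 at an unadjusted p under 0.05). Leaving out 1 library gave 0 to 16, 0 to 71 and 0 to 6, and 8 of the 10 EOD-R against AL-R fits gave 0. RLE scaling kept all 3 counts. The cause of these moves was not tested. No label says what a replicate number shares, and the libraries were not treated as paired: deviations of same-numbered libraries correlated at 0.0192 to 0.203 for AL-R and EOD-R, -0.0545 to 0.257 for IF16-R and EOD-R and 0.0926 to 0.427 for AL-R and IF16-R, below 0.1 for some number in each, and 1 of 5 numbers matched itself best in each. Some values went with the number (given for AL-R, IF16-R and EOD-R). Glucocorticoid and FOXO response genes summed to 1201.2, 1151.7 and 1205.5 CPM in replicate 1, and 1552.2, 1668.5 and 1557.1 in replicate 5. Immediate early genes summed to 430.41, 375.4 and 433.95 CPM in replicate 1, and 856.12, 859.33 and 856.65 in replicate 2. They were less alike in replicate 4, at 449.54, 609.08 and 646.26. The first principal component was -27.89, -20.65 and -6.484 in replicate 1 and 6.713, 14.88 and 13.9 in replicate 5. EOD-R replicates 2 and 3 were at -14.87 and -12.77. These were picked after they were seen, and what the numbers share was not tested. With the replicate block 13 of 19 immediate early genes were higher and 1 lower at an unadjusted p under 0.05 (2 called), and 11 of 12 oligodendrocyte genes higher (0 called). With the length gradient added, those counts were the same and 3 and 1 were called. Of named genes, Ttr reversed to -0.17 with the length gradient, -0.25 with the choroid plexus covariate, -0.88 without EOD-R replicate 3 (3.32 without AL-R replicate 1) and -2.30 without the choroid-rich libraries. Otx2 reversed to -0.087 without EOD-R replicate 3 (0.17 without EOD-R replicate 4) and -0.15 without the choroid-rich libraries, and Kdm5d ran from -0.040 to 0.050 over fits that each left out a library and was -0.0097 without the choroid-rich ones. With the red blood cell covariate Hbb-bs was at 0.15 and Lum at -0.046. The cause of these reversals was not tested.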
